A study of Mus musculus with 8 samples.

Results

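The amino acid and peptide transporters described here are the members of 8 solute carrier families (Slc1, Slc3, Slc6, Slc7, Slc15, Slc36, Slc38 and Slc43), measured in small intestine of mice given dexamethasone, a Notch pathway inhibitor, or both. Every probe set with a single annotated gene symbol from these families was taken, which gave 73 of the 22690 probe sets on the array, for 48 of 12394 named genes, in 7 of the 8 families. The Slc36 family had no such probe set and was not analysed here. Several genes of the same families carry other solutes, such as creatine, taurine and serotonin, and they were kept because the choice followed the gene names.

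The mice were 6-week-old C57/Black6 females with no genetic change stated, and each received an intraperitoneal injection every day for 5 days. The 4 groups received the vehicle DMSO, 15 mg/kg of the glucocorticoid dexamethasone, 10 umol/kg of DBZ, or both drugs at those doses, called the combination below. DBZ inhibits gamma-secretase. Gamma-secretase inhibitors block the release of the active part of Notch receptors. The labels give 2 samples for each group and name the tissue only as small intestine, without its position along the gut. Nothing in the labels beyond the replicate number says how replicates were made, so p-values measure the spread between these samples. The 2 DBZ columns held the same value in 22684 probe sets and were counted as 1 array, which leaves 7 distinct arrays, 1 for DBZ and 2 for every other group.

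Dietary protein reaches the enterocyte as short peptides and free amino acids. Peptides enter through the proton-coupled carrier Slc15a1, and free amino acids through sodium-coupled carriers of the Slc6 and Slc1 families and through exchangers of the Slc7 family in the brush border. Many Slc7 proteins work only as a pair with a heavy chain, Slc3a1 in the brush border or Slc3a2 in the basolateral membrane, and the basolateral pairs pass amino acids on to the blood. Other carriers, such as those of the Slc38 family and Slc1a5, supply the cells themselves with glutamine and other neutral amino acids.

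Values are scaled signals, the arbitrary brightness units of the array after each array was brought to a trimmed mean of 250, and changes are differences of log2(signal + 12.32) with their standard errors (SE). A probe set was tested if its mean signal reached 38.82, and "rose" and "fell" are used only where limma's adjusted p (Benjamini-Hochberg over 13638 probe sets) was under 0.05. Of the 73 transporter probe sets 37 were tested, for 26 genes. A gene with several probe sets is given by the one with the highest mean signal unless stated. With 7 arrays the precision of each value is limited.

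The vehicle arrays stood apart from the 5 treated arrays in ways that reach beyond the transporters. They had been deposited at a trimmed mean of 500 and the others at 250. The DBZ array also stood apart in signs of RNA quality, with a ratio of 3' to 5' signal of 1.80 for Gapdh and 2.17 for Actb, against 0.905 to 1.22 and 1.22 to 1.79 in the other arrays. The summed signal of 14 genes of the proximal intestine was 51733 and 57064 with vehicle and 24249 to 43754 after treatment. The sum of 11 ileal genes was 11250 and 10469 with vehicle and 22810 to 44464 after treatment. Smooth muscle genes (10 measured) summed to 12196 and 8649 with vehicle and 18451 to 27882 after treatment, fibroblast and matrix genes (8 measured) to 3316 and 5489 against 8066 to 9759, and T cell genes (6 measured) to 1349 and 1632 against 449 to 564. Enterocyte genes (11 measured, all above the signal filter) overlapped, with 65166 and 67421 with vehicle and 61405 to 92639 after treatment. These differences accompany every comparison with vehicle below. Fewer cells of a type and less RNA per cell cannot be told apart in whole tissue.

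**Figure D1:**
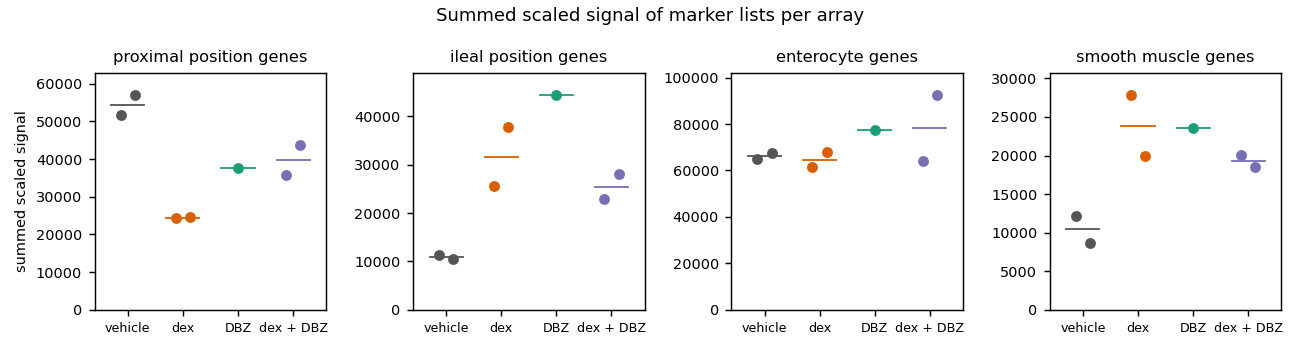
Summed scaled signal (linear axis from 0) of 4 marker lists in each array, with group means as lines; dex is dexamethasone and DBZ has 1 array. Proximal genes were highest and ileal and smooth muscle genes lowest in the 2 vehicle arrays, while enterocyte genes overlapped between groups.

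The transporter called in all 3 comparisons with vehicle was Slc6a20a, the sodium-coupled carrier of proline and other imino acids in the brush border. Its signal was 4090.5 and 4481 with vehicle, 1187 and 1906 after dexamethasone, 1975 after DBZ, and 2323 and 2191 after both drugs. Every treated array lay below both vehicle arrays, and the DBZ array lay between the dexamethasone and the combination arrays. Slc6a20a fell by 1.50 ± 0.22 on the log2 scale with dexamethasone (SE, n = 2 per group, limma adjusted p = 0.00327), a 2.83-fold lower level. It fell by 1.11 ± 0.27 with DBZ (adjusted p = 0.0351) and by 0.92 ± 0.22 with the combination (adjusted p = 0.0344). The fall with dexamethasone stayed past the threshold when any single array was left out, with adjusted p from 0.00165 to 0.0296. Without the filter or without the intensity trend the DBZ and combination calls ended (adjusted p from 0.0711 to 0.079). The DBZ call also ended without either vehicle array (-1.18 without replicate 1 and -1.05 without replicate 2) or either combination array (-1.11 for each). The combination call ended without either vehicle array (-0.99 and -0.85) or either combination array (-0.96 without replicate 1 and -0.88 without replicate 2). In the same arrays the proximal list had 9 of 13 tested genes lower and 0 higher with dexamethasone. It had 7 lower with DBZ and 6 lower with the combination. Of all tested probe sets 4.82%, 4.6% and 3.06% were lower in that order. The DBZ value rests on the array with the higher 3' to 5' ratios. The part of these differences in the fall of Slc6a20a was not tested.

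The neighbouring paralogue Slc6a20b, with 0 protein-coding genes between the pair in the GRCm38.p6 annotation, had lower signals. They were 48.0 and 88.6 with vehicle, 1.17 and 32.9 after dexamethasone, 42.8 after DBZ, and 30.1 and 50.6 after both drugs. The dexamethasone arrays lay below both vehicle arrays and the combination arrays overlapped them. The change with dexamethasone was -1.66 ± 0.54 and did not pass (adjusted p = 0.0780). The paralogues may share probe sequence, so their signals are not certain to be separate.

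Slc7a8, the light chain that with Slc3a2 carries neutral amino acids across the basolateral membrane, was also lower after dexamethasone. Its signal was 1372 and 1662 with vehicle, 632 and 778 after dexamethasone, 966 after DBZ, and 1202 and 855 after both drugs. All treated arrays were below both vehicle arrays, and the dexamethasone arrays were the lowest. Slc7a8 fell by 1.09 ± 0.21 with dexamethasone (n = 2 per group, adjusted p = 0.00994), and had -0.64 ± 0.26 with DBZ (adjusted p = 0.151) and -0.57 ± 0.21 with the combination (adjusted p = 0.131). The dexamethasone call ended without dexamethasone replicate 1 (-0.95, adjusted p = 0.0782) or vehicle replicate 2 (-0.96, adjusted p = 0.0659). The proximal marker list, lower in the same arrays, summed to 24249 and 24606 with dexamethasone.

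RefSeq promoter windows of the GRCm38.p6 build are shown for these and the other members past the threshold, since they are the genes whose levels moved. Each window is the 250 bases before the annotated start, 5' to 3' on the gene's strand, and capitals mark matches to the motifs searched. Slc6a20a is at chr9:123678833-123679082 on the minus strand, Slc7a8 at chr14:54781887-54782136 on the minus strand, Slc38a2 at chr15:96699729-96699978 on the minus strand and Slc3a1 at chr17:85028097-85028346 on the plus strand. The fifth gene past the threshold was Slc1a5.
Slc6a20a promoter: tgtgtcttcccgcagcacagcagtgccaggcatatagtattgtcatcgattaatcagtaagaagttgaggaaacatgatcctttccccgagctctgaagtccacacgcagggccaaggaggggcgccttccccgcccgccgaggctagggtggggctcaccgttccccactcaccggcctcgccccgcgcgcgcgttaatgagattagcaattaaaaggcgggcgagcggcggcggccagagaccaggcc
Slc7a8 promoter: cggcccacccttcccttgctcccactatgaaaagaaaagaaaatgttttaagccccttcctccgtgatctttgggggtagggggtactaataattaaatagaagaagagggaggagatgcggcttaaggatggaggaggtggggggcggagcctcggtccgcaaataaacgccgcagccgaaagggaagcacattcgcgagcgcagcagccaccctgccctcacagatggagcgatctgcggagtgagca
Slc38a2 promoter: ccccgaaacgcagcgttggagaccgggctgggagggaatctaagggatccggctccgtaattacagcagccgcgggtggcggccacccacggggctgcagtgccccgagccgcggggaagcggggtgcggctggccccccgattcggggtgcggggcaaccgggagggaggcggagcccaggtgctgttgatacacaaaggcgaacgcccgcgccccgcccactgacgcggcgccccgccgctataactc
Slc3a1 promoter: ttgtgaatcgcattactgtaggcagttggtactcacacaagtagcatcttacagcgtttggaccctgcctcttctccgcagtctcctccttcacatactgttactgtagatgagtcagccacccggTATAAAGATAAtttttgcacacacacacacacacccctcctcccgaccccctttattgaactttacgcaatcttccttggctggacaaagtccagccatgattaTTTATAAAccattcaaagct
The motifs, searched on both strands, were the full palindromic site of the glucocorticoid receptor, its 6-base core AGAACA, which lies within it, TGGGAA for the Notch partner RBPJ, TGATGNAA for Atf4, AGATAA for GATA factors and TATAAA for the TATA box. In the Slc3a1 window TATAAA was found 124 to 119, 18 to 13 and, on the other strand, 20 to 15 bases before the start, the last pair overlapping. AGATAA was found there 119 to 114 bases before the start, sharing 1 base with the first TATAAA. The other windows had no match to the letters searched. Over 32851 windows of the same length, 12.4% held TATAAA, 9.99% AGATAA, 16.1% AGAACA, 21.6% TGGGAA, 3.45% TGATGNAA and 0.00913% the full glucocorticoid receptor site. G and C made up 61.2% of the Slc6a20a window, 55.6% of the Slc7a8 window, 72% of the Slc38a2 window and 45.6% of the Slc3a1 window.

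**Figure D2:**
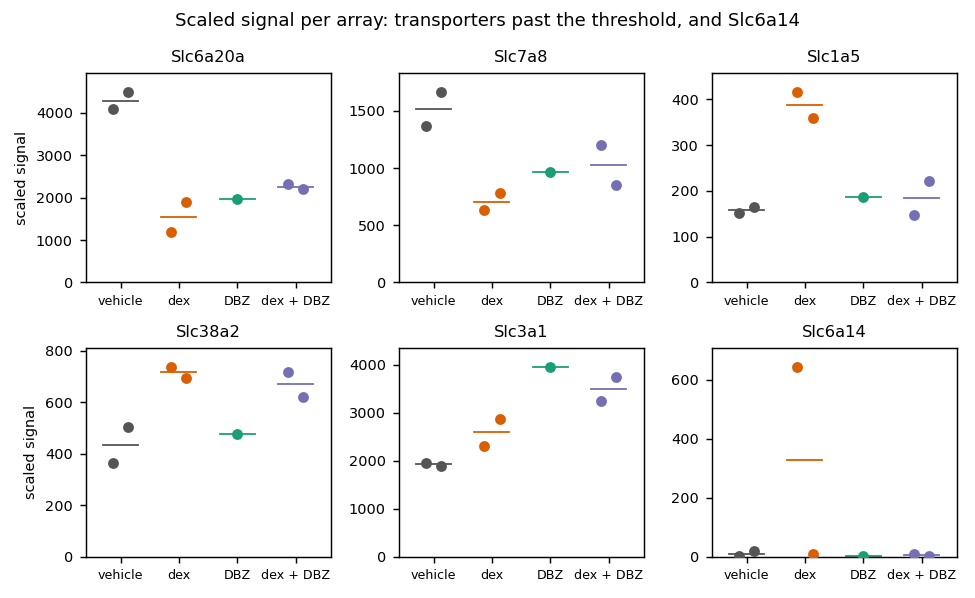
Scaled signal (linear axes from 0) of the 5 transporters past the threshold in at least 1 comparison, and of Slc6a14, in each array, with group means as lines; dex is dexamethasone and DBZ has 1 array. Slc6a20a and Slc7a8 were highest with vehicle, Slc1a5 was highest with dexamethasone alone, Slc3a1 was highest with DBZ, and Slc6a14 was high in 1 dexamethasone array.

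Slc3a1, the heavy chain of the brush border exchanger for cystine and dibasic amino acids, was higher wherever DBZ had been given. Its signal was 1955 and 1899.6 with vehicle, 2305 and 2882 after dexamethasone, 3965 after DBZ, and 3251 and 3754 after both drugs. The treated arrays were all above the vehicle arrays, and those with DBZ were above those without it. Slc3a1 rose by 1.04 ± 0.22 with DBZ (1 array against 2, adjusted p = 0.0223) and by 0.85 ± 0.18 with the combination (adjusted p = 0.0207), but at the deposited scale, on which all probe sets together had medians of -0.999 and -0.99, the values were 0.041 and -0.14. With dexamethasone alone it had 0.42 ± 0.18 (adjusted p = 0.165). The DBZ call ended without the filter (adjusted p = 0.0502) and both calls without the trend (0.0556 and 0.0552). The DBZ call also ended without vehicle replicate 1 (1.06) or 2 (1.02). The combination call ended without vehicle replicate 1 (0.87) or 2 (0.83) or combination replicate 1 (0.96) or 2 (0.75). The summed enterocyte signal was 77527 in the DBZ array and 64137 and 92639 with the combination. In each of these comparisons 0 of its 11 genes rose and 1 fell. Over all tested probe sets 3.74% and 4.38% rose and 4.6% and 3.06% fell. The DBZ value rests on the array with the 3' to 5' ratio of 1.80 for Gapdh. The part of either in the rise of Slc3a1 was not tested.

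Slc7a9, the light chain that pairs with Slc3a1, did not pass in any comparison. Its signal was 3198 and 3055 with vehicle, 2957 and 3770.5 after dexamethasone, 4667 after DBZ, and 3468 and 3959 after both drugs. The DBZ array was the highest and the dexamethasone arrays overlapped the vehicle arrays. The change with DBZ was 0.58 ± 0.22 (adjusted p = 0.140), against 0.09 ± 0.18 with dexamethasone and 0.24 ± 0.18 with the combination.

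The peptide carrier Slc15a1 had signals of 2108 and 2484 with vehicle, 1853 and 2185 after dexamethasone, 2747 after DBZ, and 2594 and 2329 after both drugs. The vehicle range overlapped that of dexamethasone and of the combination, and only the DBZ array and combination replicate 1 were above it. Changes were -0.18 ± 0.175 with dexamethasone (adjusted p = 0.556), 0.26 ± 0.21 with DBZ (adjusted p = 0.476) and 0.10 ± 0.175 with the combination (adjusted p = 0.77). Of the other peptide carriers, the higher-affinity Slc15a2 ranged from 21.2 to 201 over the arrays, with its lowest values of 47.9 and 21.2 in replicate 2 of dexamethasone and of the combination. The lysosomal carrier Slc15a4 had 29.5 and 46.6 with vehicle and 55.1 to 71.8 in the treated arrays, all of them higher, and its 0.69 ± 0.29 with dexamethasone did not pass (adjusted p = 0.155).

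Slc1a1, the glutamate and aspartate carrier, was measured by 3 tested probe sets. The brightest gave 314 and 152 with vehicle, 350.5 and 618 after dexamethasone, 519 after DBZ, and 206 and 368 after both drugs. The dexamethasone and DBZ arrays lay above both vehicle arrays and the combination arrays overlapped them. The 3 probe sets had 1.05, 1.23 and 1.26 with dexamethasone and 1.20, 1.38 and 1.01 with DBZ, and none passed (adjusted p from 0.0859 to 0.25 over both comparisons). For the brightest probe set with dexamethasone, the value was 1.54 without vehicle replicate 1 (adjusted p = 0.0475), 0.55 without vehicle replicate 2 (adjusted p = 0.458) and 0.65 without dexamethasone replicate 2 (adjusted p = 0.427). With DBZ a fit of only the groups compared gave the same 1.20, but its replicates are the 2 vehicle arrays alone. A call from that fit is not read here.

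Slc6a14, a carrier of neutral and cationic amino acids known from the colon and lung, was high in a single array. Its pair of probe sets gave 645 and 583 in dexamethasone replicate 1 and at most 18.0 in the other 6 arrays. Both probe sets were tested only because of that array, and neither change with dexamethasone passed (2.49 ± 1.21, adjusted p = 0.225, and 2.79 ± 1.12, adjusted p = 0.141). Without dexamethasone replicate 1 the change was 0.012, and without replicate 2 it was 4.96. In the same array Car1, a carbonic anhydrase of the colon, had a signal of 7427, against 1.44 to 52.4 in the others, and the colon product Retnlb had 124, against 1.64 to 8.42. Both stand on a list of colon genes chosen after values were seen (8 measured), and the rest of it did not move as one. In that array Car4 (2094), Hoxd13 (24.03) and Hoxb13 (3.91, against 1.11 to 3.76 elsewhere) were at their highest, both Hox genes below the signal filter. Slc26a3 (914) lay below both vehicle arrays (1273 and 1188), Aqp8 (56.2) between them (111 and 41.6), and Mptx1 (186) below dexamethasone replicate 2 (275). The list summed to 10830 there and 1332 to 3271 elsewhere, and without Car1 to 3403 there and 1317 to 3267 elsewhere. Their part in the Slc6a14 signal was not tested.

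The carriers of the basolateral membrane other than Slc7a8 did not pass. Slc3a2, the shared heavy chain, had 2816 and 2941 with vehicle, 2022 and 2590.3 after dexamethasone, 3217 after DBZ, and 2770.4 and 2952 after both drugs. The dexamethasone arrays lay below the vehicle arrays (-0.33 ± 0.18, adjusted p = 0.27) and the combination arrays on both sides of them. Slc7a7, the light chain that exports dibasic amino acids in exchange for neutral ones, had 1974 and 1967 with vehicle, 1959 and 2513 after dexamethasone, 2871 after DBZ, and 2852 and 2928 after both drugs. The arrays with DBZ were all above the rest, but neither DBZ (0.54 ± 0.21, adjusted p = 0.146) nor the combination (0.55 ± 0.17, adjusted p = 0.0893) passed. Slc7a6, a related light chain, ranged from 25.1 and 31.0 with vehicle to 36.2 to 49.4 in the treated arrays, all higher, with changes of 0.43 to 0.59 that did not pass. Its other probe set, below the signal filter, did not share this pattern. It had 51.7 and 33.8 with vehicle, and 24.2 and 19.4 with the combination, the lowest values. The dexamethasone and DBZ arrays lay between the vehicle arrays in that probe set.

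**Figure D3:**
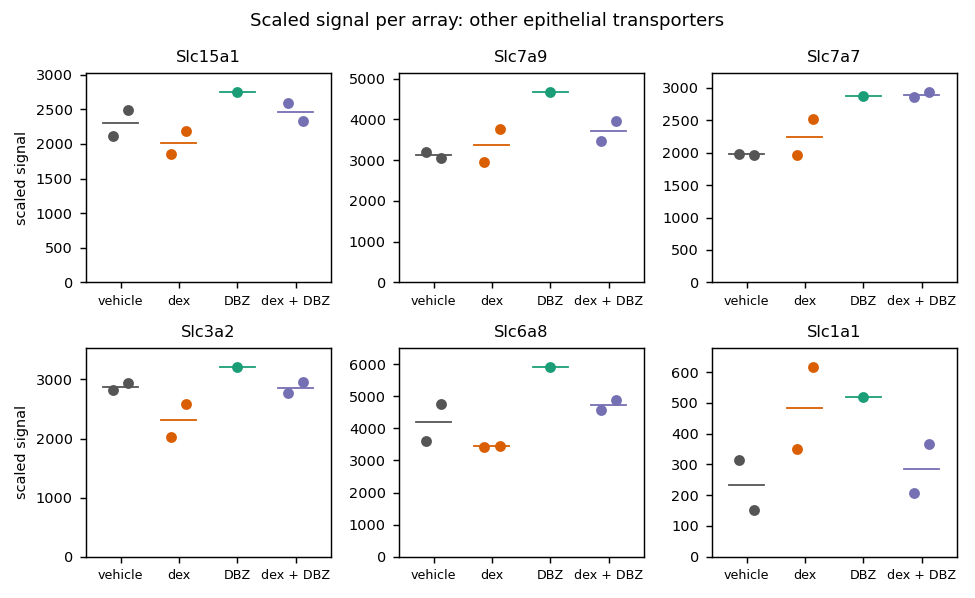
Scaled signal (linear axes from 0) of 6 further epithelial transporters in each array, with group means as lines; dex is dexamethasone and DBZ has 1 array. None of the 6 passed the threshold in any comparison, and Slc7a7 was higher in the 3 arrays with DBZ than in the other 4.

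Among the carriers that supply cells with neutral amino acids, Slc1a5 rose with dexamethasone alone. Slc1a5, an exchanger of glutamine and other neutral amino acids, had 151 and 164 with vehicle, 415 and 358 after dexamethasone, 187 after DBZ, and 148 and 222 after both drugs. The dexamethasone arrays were above the other 5, and the combination arrays lay on both sides of the vehicle arrays. It rose by 1.23 ± 0.22 with dexamethasone (n = 2 per group, adjusted p = 0.00816), and had 0.24 ± 0.27 with DBZ and 0.19 ± 0.22 with the combination. The call ended without dexamethasone replicate 1 (1.13, adjusted p = 0.0648), and at the deposited scale, on which all probe sets together had a median of -0.92, the value was 0.28 (adjusted p = 0.270). With DBZ and with the combination the value turned to -0.71 and -0.76 at the deposited scale. The difference between the combination and dexamethasone was -1.04 ± 0.22 and did not pass (adjusted p = 0.2).

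Slc38a2, a sodium-coupled neutral amino acid carrier known for its induction when amino acids are scarce, was higher in the groups that received dexamethasone. Its signal was 365 and 502 with vehicle, 738 and 694 after dexamethasone, 478 after DBZ, and 719 and 621 after both drugs. The 4 dexamethasone-treated arrays lay above the other 3. It rose by 0.73 ± 0.19 with dexamethasone (adjusted p = 0.0390), a value of -0.25 at the deposited scale, and had 0.63 ± 0.19 with the combination (adjusted p = 0.0819). The dexamethasone call ended without vehicle replicate 1 (0.50), dexamethasone replicate 1 (0.68) or 2 (0.77), or combination replicate 1 or 2 (0.73 for each). The adjusted p was 0.0512 with quantile normalization, 0.062 without the filter, 0.0811 without the trend, 0.0709 with only the groups compared and 0.0599 with the replicate number as a block.

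The related Slc38a1 had 118 and 137 with vehicle, 203 and 201 after dexamethasone, 106 after DBZ, and 105 and 149 after both drugs. The dexamethasone arrays were the highest, but the change of 0.62 ± 0.23 did not pass (adjusted p = 0.110). Slc7a5, the large neutral amino acid carrier that pairs with Slc3a2, had 19.3 and 32.5 with vehicle, 47.4 and 89.7 after dexamethasone, 17.2 after DBZ, and 42.3 and 87.6 after both drugs. As for Slc38a2, the 4 arrays with dexamethasone lay above the other 3, and the changes of 1.05 ± 0.41 with dexamethasone (adjusted p = 0.128) and 0.97 ± 0.41 with the combination (adjusted p = 0.179) did not pass. The Slc38a10 gene had 6 tested probe sets, which disagreed with DBZ, from -0.61 to 0.54, and none passed in any comparison. Slc1a4, a carrier of serine and alanine, ranged from 30.5 to 59.5 in its tested probe set and passed in none.

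Carriers of other solutes in the same families, and the tested members not yet named, did not pass either. The creatine carrier Slc6a8 had 3617 and 4767 with vehicle, 3420.0 and 3450.4 after dexamethasone, 5923 after DBZ, and 4561 and 4888 after both drugs. Its other probe set differed in sign with dexamethasone (0.21, against -0.27). The taurine carrier Slc6a6 ranged from 510.4 to 674 over all arrays and the serotonin carrier Slc6a4 from 483 to 818. Slc6a6 was highest in the dexamethasone arrays (0.26 ± 0.16) and Slc6a4 in dexamethasone replicate 2 (0.42 ± 0.19). The glycine carrier Slc6a9 had 129.7 and 139 with vehicle and 171 and 170.1 with dexamethasone (0.32 ± 0.21, adjusted p = 0.373). Slc43a3, the 1 member of its family measured and known as a nucleobase carrier, had 55.3 and 32.0 with vehicle and 75.4 to 94.6 in the 3 arrays with DBZ, which were the highest. Its 0.97 ± 0.38 with DBZ did not pass (adjusted p = 0.146). Slc6a17 and Slc7a4 did not pass in any comparison.

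The remaining 36 probe sets were below the signal filter, with signals from 0.258 to 65.3, and were not tested. They include all probe sets of 22 genes, namely Slc1a2, Slc1a3, Slc1a6, Slc6a2, Slc6a3, Slc6a5, Slc6a12, Slc6a13, Slc6a15, Slc6a18, Slc7a1, Slc7a2, Slc7a3, Slc7a10, Slc7a11, Slc7a12, Slc7a13, Slc15a3, Slc15a5, Slc38a3, Slc38a4 and Slc38a5. Slc6a19, Slc7a15, Slc36a1, Slc43a1 and Slc43a2 were not analysed here. The dopamine carrier Slc6a3 had 48.2 and 55.1 with vehicle and 18.0 to 40.5 in the treated arrays. A weaker Slc1a4 probe set had 14.0 and 11.8 with vehicle, 35.3 and 43.8 with dexamethasone, and 17.5 to 24.4 in the arrays with DBZ.

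Counted together, the share of transporter probe sets called was near that of all tested probe sets. In dexamethasone against vehicle 2 of 37 transporter probe sets were higher and 2 lower (10.8%), where 12% of all tested probe sets were called, 7.22% higher and 4.82% lower. In DBZ against vehicle 1 was higher and 1 lower (5.41%, against 8.34% of all, 3.74% higher and 4.6% lower), and in the combination against vehicle likewise 1 and 1 (5.41%, against 7.44% of all, 4.38% higher and 3.06% lower). At unadjusted p under 0.05 the members numbered 13, 9 and 8 of 37, where 26.9%, 26.4% and 24.2% of all tested probe sets were under it. At the deposited scale the transporter splits were 0 higher and 20 lower, 0 and 19, and 0 and 23. All 13638 tested probe sets gave 201 higher and 9974 lower, 129 and 9227, and 132 and 10707 at that scale. The median change of the 37 was 0.27 with dexamethasone (29 above 0), 0.16 with DBZ (22 above 0) and 0.18 with the combination (23 above 0), and the medians of all tested probe sets were 0.025, -0.054 and -0.039. Of all tested probe sets 52.1%, 46.1% and 46% were above 0. The median log2 signal of the 37 in each array varied between replicates of a group with a pooled SD of 0.317. It differed most between the dexamethasone arrays (8.50 and 7.74), against 7.15 and 7.24 with vehicle and 7.25 and 7.33 with the combination. That SD is of a level and does not measure the spread of the median change. With 1 array left out, the median change ran from 0.26 to 0.33 with dexamethasone, 0.14 to 0.19 with DBZ and 0.053 to 0.235 with the combination. By family, all 8 tested Slc38 probe sets were above 0 with dexamethasone (median 0.19) and 4 of 8 with DBZ. They stand for 3 genes, and most of them are of Slc38a10. Of the 5 Slc1 probe sets, also for 3 genes, 4 were above 0 in each of the 3 comparisons, with medians of 1.23, 1.01 and 0.31. Slc1a1, which passed in no comparison, accounts for 3 of the 5. These family counts and medians are therefore not over separate genes. The 3 comparisons share the vehicle arrays and are not independent.

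**Figure D4:**
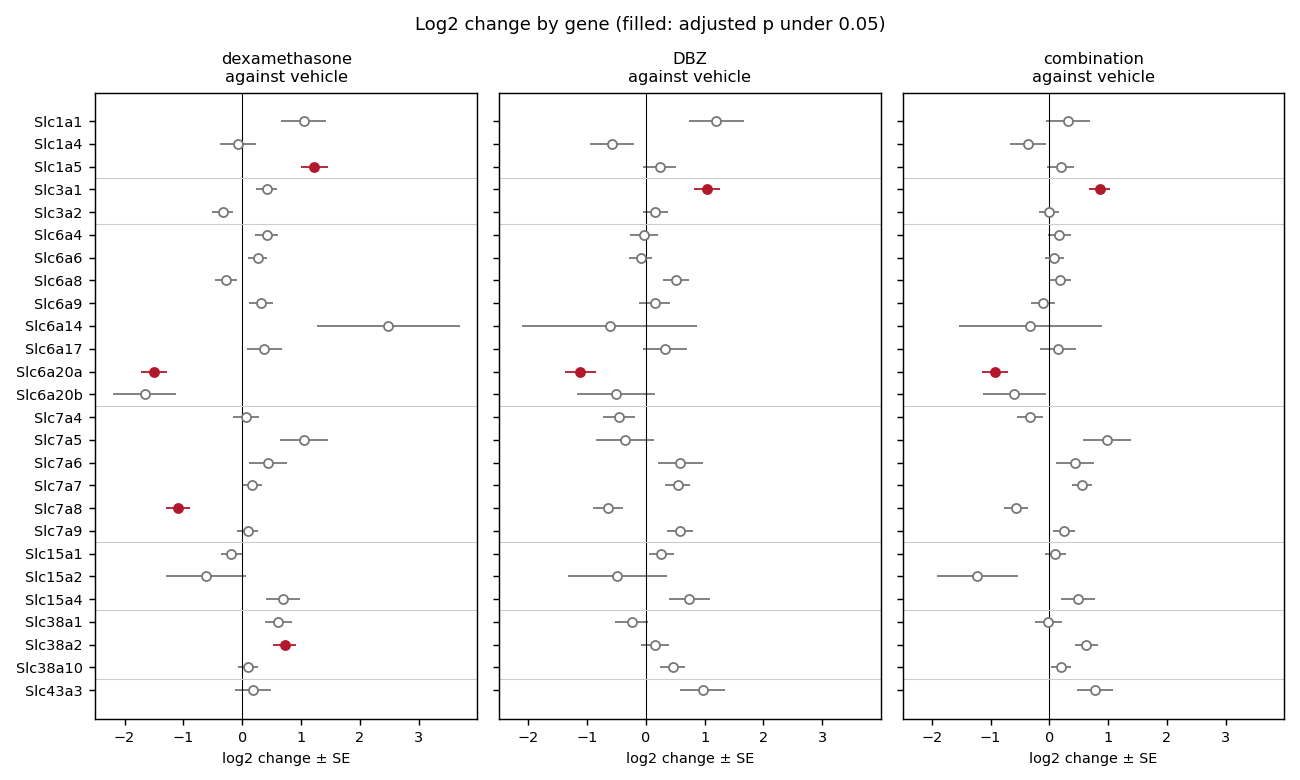
Log2 change against vehicle (horizontal axis, points with SE bars) of the 26 tested transporter genes, grouped by family, for dexamethasone, DBZ and the combination, on one scale. Filled points passed the threshold, 4 genes with dexamethasone and 2 in each of the other comparisons, and Slc6a20a was lower in all 3.

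Set against the single drugs, which leaves the vehicle arrays out of the contrast, the combination gave no transporter past the threshold. Limma called 0 of 37 in the combination against DBZ (0.33% of all tested probe sets, 0.301% higher and 0.0293% lower) and 4 at unadjusted p under 0.05 (12.3% of all). It called 0 against dexamethasone (0.0293% of all, 0.022% higher and 0.00733% lower) and 8 at unadjusted p under 0.05 (9.36% of all). The lowest p of these 8 was that of Slc1a5 (-1.04 ± 0.22). Slc6a20a had 0.58 ± 0.22, Slc7a8 0.52 ± 0.21 and Slc3a1 0.44 ± 0.18 against dexamethasone, and the combination arrays of these 3 genes lay above both dexamethasone arrays. The summed proximal signal was 35741 and 43754 with the combination and 24249 and 24606 with dexamethasone, and its part in these values was not tested. Against DBZ, Slc6a20a had 0.19 ± 0.27, Slc7a8 0.07 ± 0.26 and Slc3a1 -0.18 ± 0.22. Leaving out both vehicle arrays from the fit kept both counts at 0.

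The interaction, the DBZ change with dexamethasone minus the DBZ change without it, passed for 1 of 37 transporter probe sets, Slc6a20a, where 4% of all tested probe sets passed, 2.07% higher and 1.93% lower. At unadjusted p under 0.05 there were 7 of 37, where 20.5% of all tested probe sets were under it. The DBZ change of Slc6a20a was 0.58 ± 0.22 with dexamethasone present and -1.11 ± 0.27 without it, a difference of 1.69 ± 0.35 (adjusted p = 0.0301). In the same contrast 8 of the 13 proximal genes were called higher and 0 lower (median 2.104), and 9 of the 10 ileal genes lower and 0 higher (median -3.95). The contrast also includes the vehicle arrays, whose Slc6a20a signals lay above those of every treated array. The part of these lists and of the vehicle arrays in the Slc6a20a value was not tested. The call ended without the filter (adjusted p = 0.069), without the trend (0.0796), without vehicle replicate 1 (1.76) or 2 (1.63), dexamethasone replicate 1 (1.35), or combination replicate 1 (1.65) or 2 (1.73). Slc1a5 (-1.28 ± 0.35, adjusted p = 0.0783) and Slc7a8 (1.16 ± 0.33, adjusted p = 0.0829) did not pass.

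Genes that act beside the transporters were read from the same fit. Of 15 tested genes of luminal protein digestion and transporter partners, 2 rose and 2 fell with dexamethasone, 3 rose with DBZ and 2 rose with the combination. Over all tested probe sets 7.22% were higher and 4.82% lower with dexamethasone, 3.74% higher with DBZ and 4.38% higher with the combination. The brush border metalloprotease Mep1a rose by 2.57 ± 0.19, 2.86 ± 0.23 and 2.04 ± 0.19 in that order, and it also stands on the ileal list. The aminopeptidase Xpnpep2 rose by 1.96 ± 0.28, 2.24 ± 0.35 and 2.11 ± 0.28. The peptidases Ace and Mme fell with dexamethasone, by 0.99 ± 0.17 and 0.99 ± 0.26, and the brush border scaffold Pdzk1 rose with DBZ (0.98 ± 0.26). The Mme call ended without vehicle replicate 2 (-0.61), dexamethasone replicate 1 (-0.76) or either combination array (-0.99 for each). The Pdzk1 call ended without either vehicle array (0.89 and 1.07) or either combination array (0.98 for each), and its value was -0.016 at the deposited scale. The Xpnpep2 call with the combination ended without combination replicate 2 (1.87, adjusted p = 0.0527). The median of the list was 0.082 with dexamethasone, 0.35 with DBZ and 0.29 with the combination, against 0.025, -0.054 and -0.039 for all probe sets.

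Of 26 tested genes of the amino acid response, which Atf4 drives when amino acids are scarce, 6 rose with dexamethasone and 0 fell, where 7.22% of all probe sets were higher and 4.82% lower. The list had 23 genes above 0 and a median of 0.49, against 0.025 for all probe sets. The transfer RNA synthetases Wars (1.21 ± 0.19), Aars (0.74 ± 0.17) and Gars (0.70 ± 0.17) rose, as did Nupr1 (3.53 ± 0.64), Vldlr (1.20 ± 0.27) and Atf3 (0.89 ± 0.25). Nupr1 had 103 and 34.2 with vehicle but 1897 and 362 after dexamethasone, the higher in the array with the Car1 signal, and 2.35 without that array. Its call ended without vehicle replicate 2 (2.87, adjusted p = 0.0706). Of the 6 calls that of Wars held with any array left out, and at the deposited scale that of Nupr1 held (2.67) while Aars (-0.24), Gars (-0.28) and Atf3 (-0.032) turned sign. Aars, Gars and Atf3 each lost their call without either combination array, vehicle replicate 2 or dexamethasone replicate 2 (values from 0.58 to 0.97). Aars and Gars also lost it without dexamethasone replicate 1 (0.80 and 0.68) and Atf3 without vehicle replicate 1 (0.81), and Vldlr without vehicle replicate 2 (1.099) or dexamethasone replicate 1 (0.91). Asparagine synthetase, Asns, had 0.89 ± 0.30 (adjusted p = 0.0883) and Atf4 itself 0.51 ± 0.21 (adjusted p = 0.156). With DBZ 1 gene of the list rose, Wars (0.96 ± 0.24), and with the combination 3 rose, Wars (0.82 ± 0.19), Atf3 (1.16 ± 0.25) and Cebpg (0.73 ± 0.16). Over all probe sets 3.74% and 4.38% were higher. The medians of the list there were 0.23 and 0.43, against -0.054 and -0.039 for all probe sets. Each of these 4 calls ended without either vehicle array or either combination array (adjusted p from 0.0544 to 0.222), and that of Wars with DBZ also without either dexamethasone array (0.0537 and 0.0535).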

How the data were processed

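Small intestine RNA was hybridised to Affymetrix arrays, and the deposited values are intensity (signal) per probe set made by the authors with MAS5, per the submitters' processing notes; no version is given in the sources used here. All 8 columns were mapped to samples and 0 were left unused. The 2 DBZ columns became 1 array (in the 6 probe sets where one copy was listed at 0, the other was used), whose spread was taken from the other groups.

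Arrays were rescaled so that the mean without the highest and lowest 2% was 250. Tests used log2(signal + 12.32), where 12.32 is the 20th percentile over all arrays. Probe sets averaging under 38.82 (the 40th percentile) and 64 controls were left out. The 4 group means were fitted over 13638 probe sets with limma 3.58.1 in R 4.3.3 (intensity trend, 2-sided, 3 residual and 6.83 prior degrees of freedom). Symbols came from a platform annotation (20393 probe sets with 1 symbol, 691 with several, 1606 with none). All 73 transporter entries matched the GRCm38.p6 gene table and 0 symbols changed.

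Transporters named with values were those past the threshold in any comparison, the brightest of each family, and a list of epithelial transporters. Slc1a4, Slc6a3, Slc6a4, Slc6a9, Slc15a2 and Slc15a4 were added after their values were seen. Members, lists and alternatives were chosen with earlier results of these data known. The pipeline was tested on simulated data. Alternatives were the intensities as deposited, quantile normalization, other pseudocounts, no filter, no trend, fitting only the groups compared, omitting probe sets marked for possible cross-hybridisation, the replicate number as a block, and leaving out arrays one by one; the fit without vehicle arrays, the colon list and its sum without Car1 were added after the values were seen.

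Marker lists for goblet, Paneth and enteroendocrine cells, enteric neurons and glia, pancreatic acinar cells, and B and plasma cells were also counted. Of all tested probe sets 7.22%, 3.74% and 4.38% were called higher with dexamethasone, DBZ and the combination against vehicle. In that order 4.82%, 4.6% and 3.06% were called lower. Against vehicle, the counts called with dexamethasone, DBZ and the combination were 5, 2 and 2 of 10 goblet genes higher, 2, 0 and 0 of 5 Paneth genes higher (medians 0.75, -0.77 and 0.0058, with 0 of 5 above 0 with DBZ), 3, 2 and 1 of 7 enteroendocrine genes lower, 1, 0 and 0 of 3 B and plasma cell genes lower, 0, 1 and 0 of 2 pancreatic genes lower, and 0 of 3 neural genes in each.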

Additional observations from a re-analysis of the deposited data

Results flagged for a closer look

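The interaction of dexamethasone and DBZ passed the threshold for Slc6a20a, with 1.69 ± 0.35 on the log2 scale (limma adjusted p = 0.0301), the difference between its DBZ change with dexamethasone and without it. The signal was 4090.5 and 4481 with vehicle, 1975 with DBZ, 1187 and 1906 with dexamethasone, and 2323 and 2191 with the combination. In the same contrast 8 of 13 proximal genes were called higher and 0 lower (median 2.104), against 2.07% and 1.93% of all tested probe sets. The part of the proximal genes in the Slc6a20a value was not tested. The contrast rests on 1 DBZ array, which has higher 3' to 5' ratios than the others (Gapdh 1.80, against 0.905 to 1.22). It also includes the vehicle arrays, whose Slc6a20a signals lay above those of every treated array. In the contrasts without vehicle, the combination had 0.58 ± 0.22 against dexamethasone (limma adjusted p = 0.458) and 0.19 ± 0.27 against DBZ (adjusted p = 0.833). The part of the vehicle arrays in the interaction was not tested. Over the 6 fits that leave out 1 array each the value ran from 1.35 to 2.03 and the adjusted p from 0.00954 to 0.105.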

How the results depend on the processing

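With the intensities as deposited, the transporter probe sets past the threshold numbered 20 with dexamethasone, 19 with DBZ and 23 with the combination, all lower, and 14 in the interaction, all higher. In that order all 13638 tested probe sets gave 201 higher and 9974 lower, 129 and 9227, 132 and 10707, and 6379 and 118. The median changes of the transporters were -0.64, -0.79, -0.77 and 0.76 there, where the medians of all probe sets were -0.92, -0.999, -0.99 and 0.95. Under that setting these values turned sign: with dexamethasone Slc38a2 (-0.25), Slc3a1 (-0.58), Slc7a7 (-0.83) and Slc7a9 (-0.90); with DBZ Slc1a5 (-0.71), Slc38a2 (-0.82) and Slc15a1 (-0.73); with the combination Slc1a5 (-0.76), Slc3a1 (-0.14), Slc15a1 (-0.89), Slc7a7 (-0.45) and Slc7a9 (-0.75); and in the interaction Slc7a7 (0.83).

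Without a filter, where more probe sets were tested, the transporter counts were 0 with DBZ, 1 with the combination and 0 in the interaction. All probe sets then gave 273 higher and 265 lower, 381 and 242, and 127 and 106. Without the intensity trend the transporter counts were 0 in all 3. All probe sets then gave 291 and 387, 391 and 262, and 108 and 98. In the main fit they gave 510 and 627, 598 and 417, and 282 and 263. The cause was not tested. With only the groups compared, DBZ against vehicle gave 4 transporter calls, where 638 of all probe sets were higher and 803 lower. Only the 2 vehicle arrays are replicates in that fit, so its spread rests on them. Leaving out 1 array moved the transporter calls in every comparison but the combination against DBZ. The calls over all tested probe sets moved as well. Such a fit leaves 1 array in a group or no DBZ array, so its counts are not given.

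Replicate numbers were not taken to pair the samples: deviations of replicate 1 from the group means correlated at 0.049 (vehicle and dexamethasone), -0.12 (vehicle and combination) and 0.11 (dexamethasone and combination). With a replicate block the transporter counts were 4, 2, 2, 0, 0 and 1 in the order of the 6 comparisons. All tested probe sets gave 908 higher and 584 lower, 486 and 489, and 552 and 339 in the comparisons with vehicle. The other comparisons gave 1 and 0, 0 and 0, and 224 and 271. The block ended 1 transporter call, that of Slc38a2 with dexamethasone (0.73, limma adjusted p = 0.0599), and added 1 lower call in that comparison. The file gives no signal over background, so low signals rest on the pseudocount.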
